A study of Saccharomyces cerevisiae with 24 samples.

Results

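Aminoacyl-tRNA synthetases are the enzymes that attach each amino acid to its own tRNA, and the ribosome then reads the charged tRNA. Budding yeast keeps a cytosolic set, which serves the translation of nuclear messages, and a mitochondrial set, which serves the few proteins made inside the organelle and is itself encoded in the nucleus. Some genes make both forms of their enzyme by starting translation at alternative sites. The genes were chosen by symbol, as 31 named synthetase genes, 18 cytosolic and 13 mitochondrial. Of these, 29 were measured among 4069 genes in the table, 17 cytosolic and 12 mitochondrial, each by 2 probes. GUS1, of cytosolic glutamyl-tRNA synthetase, and SLM5, of mitochondrial asparaginyl-tRNA synthetase, were not analysed here.

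Total RNA of 8 adaptive Saccharomyces cerevisiae mutants, evolved for tolerance to hydrolysates of lignocellulosic biomass, was compared on 2-colour arrays with that of strains carrying a fluorescent protein. The DsRed strain was the reference of M1, PR-164, PR-338 and PR-438, the GFP strain that of PG-132, PG-259 and PG-353, and the YFP strain that of PY-231. Each mutant had 3 arrays, 1 on each of 3 slides, which gave 24 arrays. Slides 1 and 3 carried the mutants in Cy5 and slide 2 carried them in Cy3. Per the labels, growth was in glucose-free YNB minimal medium and in 1 g/mL of biomass hydrolysate, with no word on whether these were 1 medium, and 5 µg of cDNA was labelled. The labels name no mutation and do not say whether a mutant is a single clone.

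Values below are log2 of mutant over reference, minus the median of the array's named probes, so 0 is the level of the median probe and not an absolute lack of change. The labels do not state which way the ratio runs on slide 2. Mutant over reference is likely on every slide, since array medians of the deposited ratio were 2.44 to 5.41 on slide 2 and lay below 1 on 13 of the 16 arrays of slides 1 and 3. Even so, slide 2 correlated negatively with the other slides of the same mutant over all genes (median Pearson r = -0.31). Slides 1 and 3 had a median of 0.23. After each gene's mean over a slide was taken off, the value for slide 2 was -0.02. In M1 the mating-type genes MFA2 and STE3 were at 6.76 and -6.13 on slide 2 and at 6.26 and -5.71 on slide 3. Slides 2 and 3 thus ran the same way in M1 as read here. For the other mutants the direction has to be taken as unsettled, and key values are given with slide 2 turned as well.

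Some arrays stood apart. On PY-231 replicate 1 the paired probes of a gene correlated at -0.01, against 0.29 to 0.93 on the other 23 arrays. On M1 replicate 1 the mating-type genes MFA2 and STE3 were at 0.07 and 0.56, while they were at 6.76 and -6.13 on replicate 2 and at 6.26 and -5.71 on replicate 3. Both arrays are on slide 1, and the leading genes of single mutants are therefore also given without replicate 1, that is, without slide 1.

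In the mean of the 8 mutants, 5 of the 17 cytosolic genes were lower than in the references and none was higher by limma. Over all 4069 genes 11.2% were lower and 2.09% higher at the same adjusted p under 0.05. This excess of lower genes rested on slide 2, as 12.4% were lower and 19.2% higher with slide 2 turned, and 13% and 16.2% without it. The 5 were TYS1, DED81, FRS2, THS1 and GRS1, which charge tRNAs with tyrosine, asparagine, phenylalanine, threonine and glycine. Of the 12 mitochondrial genes, limma called 0, and 2 were higher at an unadjusted p under 0.05, which 30% of all genes had. The cytosolic genes had a median of -0.16, the mitochondrial genes 0.08 and all genes 0.004. The fit took the 24 arrays as independent, although they lie on 3 slides whose arrays deviated together (median r = 0.50). The SEs and p-values of the mean of the 8 mutants given here and below can therefore be too small.

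TYS1, of the cytosolic tyrosyl enzyme, fell by 1.04 ± 0.11 (SE, limma adjusted p = 2.72e-06), a ratio of 0.488. On slides 1, 2 and 3 it was at -0.56, -2.49 and -0.13 in PR-438, -0.23, -1.44 and -0.86 in PR-338, -0.50, -1.10 and -1.15 in PR-164, -0.83, -1.14 and -0.47 in M1, -0.76, -2.18 and 0.07 in PG-259, -0.51, -1.21 and -0.36 in PG-353, -0.38, -2.18 and -0.51 in PG-132, and 0.12, -1.71 and 0.84 in PY-231. It lay below 0 on 21 of 24 arrays, and the exceptions were 2 arrays of PY-231 and 1 of PG-259.

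DED81, of the cytosolic asparaginyl enzyme, fell by 0.99 ± 0.10 (SE, limma adjusted p = 4.32e-06). In the same slide order it was at -0.99, -2.18 and -0.08 in PR-438, -0.49, -1.70 and -0.62 in PR-338, -0.79, -1.65 and -1.0 in PR-164, -1.21, -1.32 and -0.33 in M1, -0.60, -1.51 and 0.46 in PG-259, -0.59, -1.30 and -0.08 in PG-353, -0.16, -2.39 and 0.27 in PG-132, and -0.31, -0.94 and 0.86 in PY-231. All 8 arrays of slide 2 were low, between -2.39 and -0.94, and the 3 values above 0 were all on slide 3.

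FRS2 and FRS1 encode the alpha and beta subunits of 1 enzyme, the cytosolic phenylalanyl-tRNA synthetase, and had unlike values. FRS2 fell by 0.92 ± 0.11 (SE, limma adjusted p = 1.61e-05), while FRS1 was at 0.06 ± 0.09 (adjusted p = 0.693). FRS2 was at -0.54, -1.66 and -0.29 in PR-438, -0.78, -0.92 and -0.76 in PR-338, -1.17, -1.19 and -1.20 in PR-164, -1.45, -0.78 and -0.78 in M1, -1.07, -1.69 and 0.20 in PG-259, -0.75, -0.90 and -0.33 in PG-353, -1.33, -2.14 and -0.04 in PG-132, and -0.36, -0.39 and 0.65 in PY-231. It was below 0 on 22 of 24 arrays and its 3 arrays of PR-164 lay close together. FRS1 ran from -0.65 to 1.45 with a median of 0.04 and was below 0 on 10 arrays. The difference between the subunits was not tested.

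THS1, of the threonyl enzyme, was fitted at -0.91 ± 0.17 (SE, limma adjusted p = 0.000785), and its values split by slide. On slide 1 it ran from 0.05 to 1.09 with a median of 0.39, on slide 2 from -3.07 to -1.77 with a median of -2.33, and on slide 3 from -1.02 to 2.18 with a median of 0.47. Every array of slide 1 was thus above 0 and every array of slide 2 below it, while slide 3 had 4 on each side, with M1, PR-164, PR-338 and PR-438 below 0 and the others above. The deposited ratios of slide 3 split alike over all named probes, with array medians of 0.610 to 1.53 for those 4 mutants and of 0.22 to 0.471 for the others.

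GRS1, of the glycyl enzyme that serves both compartments, was fitted at -0.76 ± 0.16 (SE, limma adjusted p = 0.0029) and split in the same way. It ran from -0.16 to 1.33 on slide 1, from -2.63 to -0.85 on slide 2 and from -0.63 to 2.09 on slide 3. Slide 1 had 6 of 8 arrays above 0, slide 2 had none, and on slide 3 the 4 mutants set against DsRed were below 0 and the rest above.

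**Figure D1:**
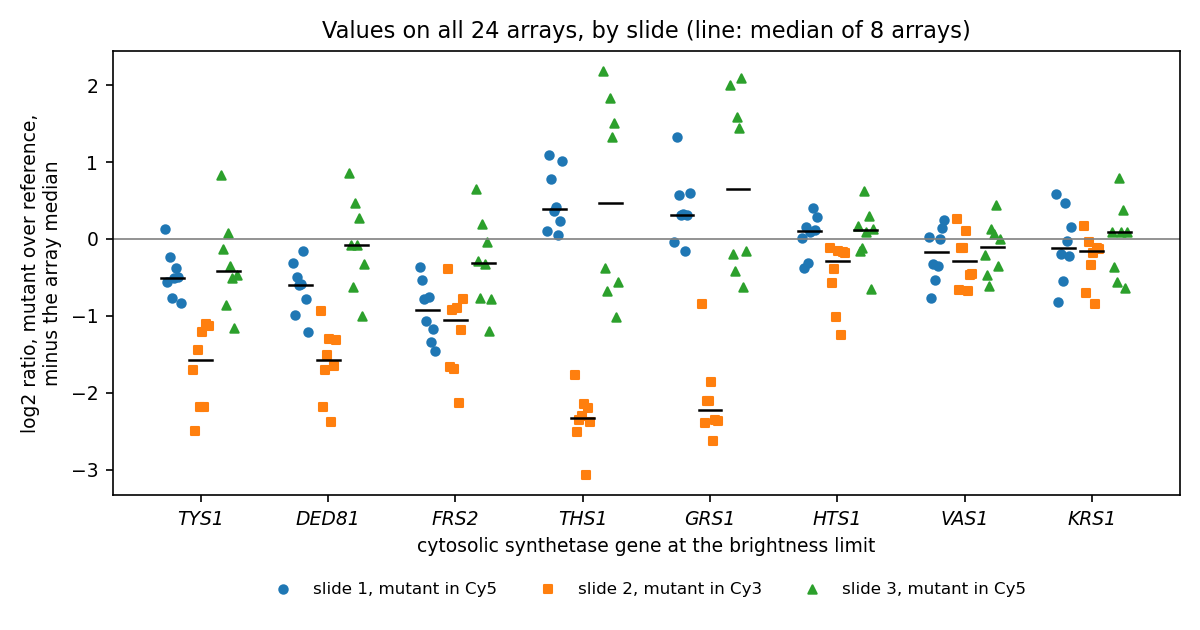
Log2 ratio (mutant over reference, minus the array median, vertical axis) of 8 cytosolic synthetase genes on all 24 arrays, with slide 1 as circles, slide 2 as squares and slide 3 as triangles, and a line at the median of the 8 arrays of a slide. TYS1, DED81 and FRS2 were lowest on slide 2 and had slide medians below 0 on all 3 slides, whereas THS1 and GRS1 had medians above 0 on slides 1 and 3 and of -2.33 and -2.23 on slide 2.

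Without slide 1, and likewise without slide 3, all 5 passed. With slide 2 left out, the only one with the mutants in Cy3, no dye term could be fitted. Dye and mutant cannot be told apart in that fit, in which 3 of the 5 calls ended or turned. Without slide 2 FRS2 was at -0.63 (limma adjusted p = 0.00758) and TYS1 at -0.39 (adjusted p = 0.0135), while DED81 was at -0.35 (adjusted p = 0.0501). THS1 and GRS1 changed sign to 0.52 and 0.56 (adjusted p = 0.107 and 0.0781). With slide 2 turned, TYS1, DED81, THS1 and GRS1 were instead higher, at 0.65, 0.63, 1.43 and 1.32 (limma adjusted p = 8.51e-06, 0.000155, 2.15e-06 and 6.65e-06). FRS2 was then at 0.29 (limma adjusted p = 0.0726). These 5 values are also the dye term of the main fit, so a turned slide and a dye effect cannot be told apart. With no dye term and the slide as a random block, 0 of all 4069 genes passed, these 5 included (adjusted p = 0.661 to 0.856), with TYS1 and FRS2 at -0.82, DED81 at -0.78, THS1 at -0.44 and GRS1 at -0.32.

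Before centring, GRS1 had deposited ratios of 0.394 to 1.34 and THS1 of 0.30 to 1.22 over all 24 arrays, although the medians of the arrays' named probes ran from 0.22 to 5.50. On slide 2, where these medians were 2.41 to 5.50, GRS1 had 0.632 to 1.34 and THS1 0.579 to 0.975. Both thus stayed near or below 1 where the median probe was well above it. Such values were not particular to them, since 58 of the 589 genes at the brightness limit described below had a spread of uncentred log2 ratios no larger than that of GRS1, and 73 none larger than that of THS1 (both counts include the gene itself). DED81, TYS1 and FRS2 moved further, with ratios on slide 2 of 0.728 to 1.95, 0.588 to 2.21 and 0.938 to 2.84. HTS1 came closer to its arrays, with 1.5 to 4.28 on slide 2, but was below the array median on all 8 arrays there, by 0.12 to 1.25 in log2.

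**Figure D2:**
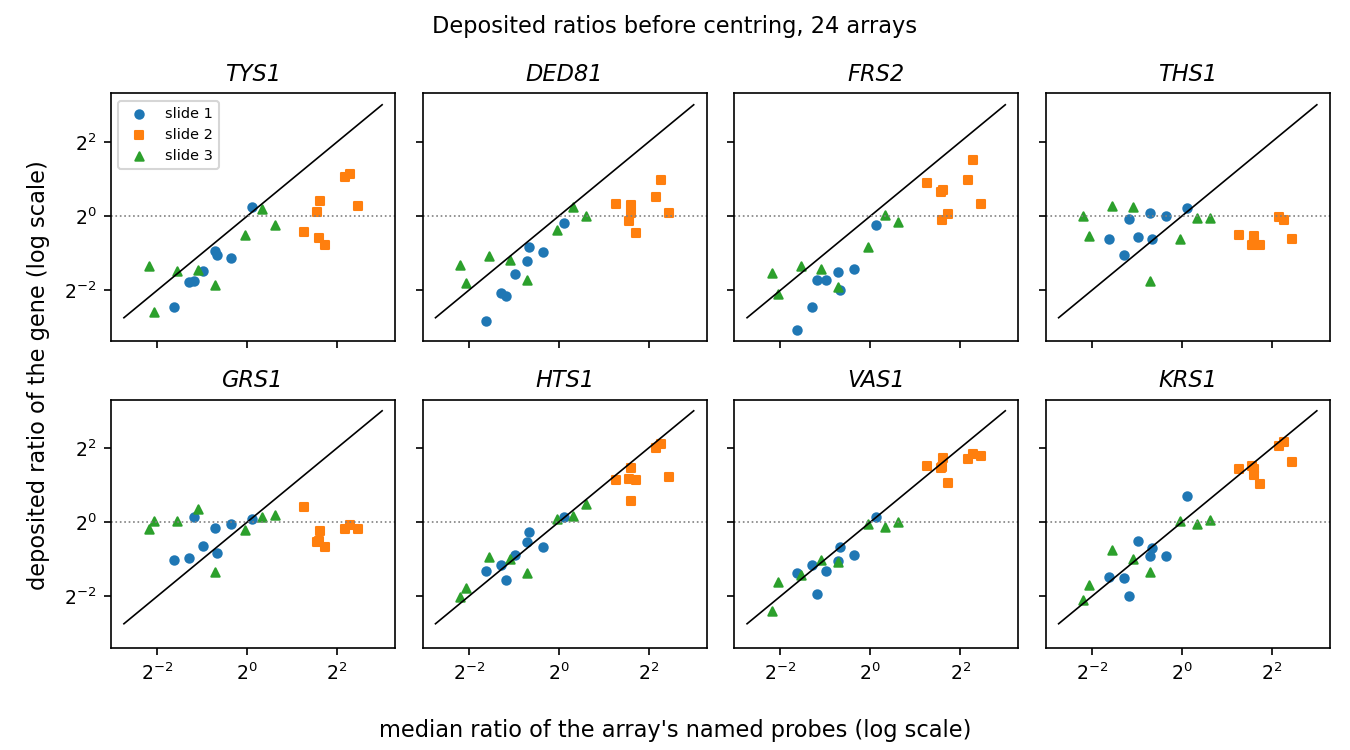
Deposited ratio of each of 8 cytosolic synthetase genes (vertical axis, log scale) against the median ratio of the array's named probes (horizontal axis, log scale) on 24 arrays, where the solid line marks equal values and the dotted line a ratio of 1. GRS1 and THS1 ran along the dotted line. HTS1, VAS1 and KRS1 ran closer to the solid line, though below it on most arrays of slide 2. TYS1, DED81 and FRS2 lay between these groups on slide 2.

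Spot brightness moved with these results. It was estimated from the whole numbers, in lowest terms, whose quotient is the deposited ratio, as a median over arrays. Lowest terms can put a spot too low. A ratio with no such quotient up to a denominator of 10000 was set to a search limit of 10000 intensity units. Genes whose 2 probes both had a median at this limit are called genes at the limit here, and their brightness itself was not measured. The cytosolic genes had a median brightness of 8792 units and the mitochondrial genes 1747, against 1689 over all genes. All 5 called genes were among the 8 cytosolic genes at the limit, which were DED81, FRS2, GRS1, HTS1, KRS1, THS1, TYS1 and VAS1 and had a median of -0.84. The 9 cytosolic genes below the limit had a median of 0.06 with 0 called, and no mitochondrial gene was at the limit. Over the whole table, 61.8% of the 589 genes at the limit were lower in the mean of the 8 mutants, with a median of -0.57, against 2.61% of the other 3480 genes. With slide 2 turned, 1.02% of the genes at the limit were lower and 79.3% higher, and without slide 2 9.51% were lower and 39.6% higher. As stated above, a turned slide cannot be told apart from a dye effect, and without slide 2 no dye term was fitted. The 5 of 8 synthetase genes called at the limit are thus close to the share of all genes there, and the part of brightness in the 5 calls was not tested.

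**Figure D3:**
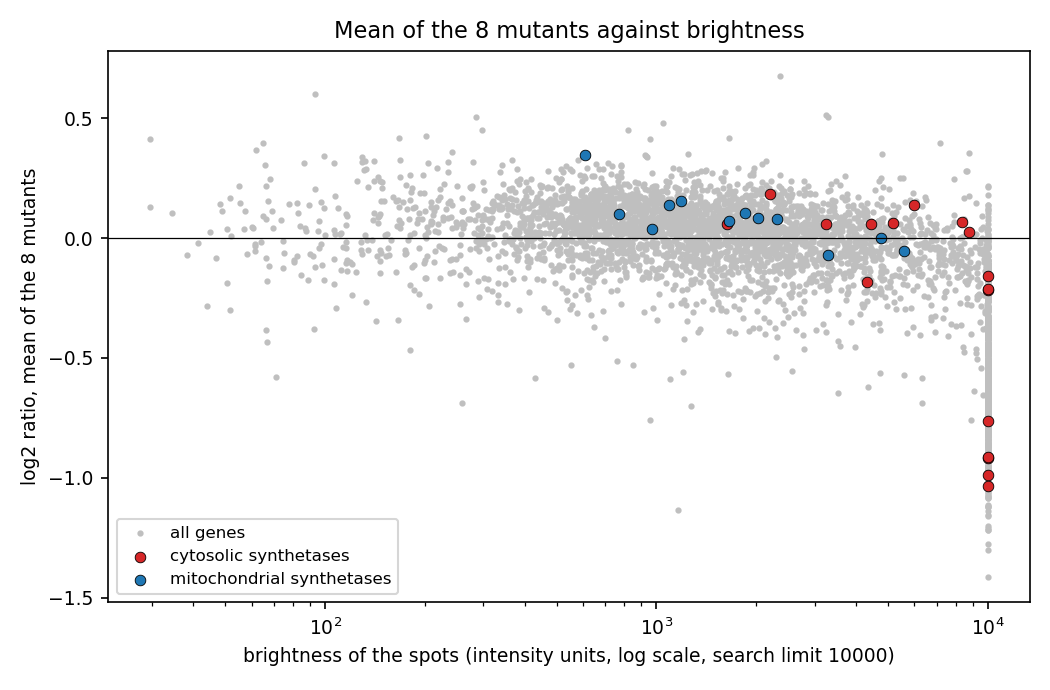
Log2 ratio in the mean of the 8 mutants (vertical axis) against estimated spot brightness (horizontal axis, intensity units, log scale, search limit 10000), with all genes in grey, cytosolic synthetases in red and mitochondrial synthetases in blue. The low cytosolic genes stand at the limit, where the grey points reach down as well, and the mitochondrial genes lie at 610 to 5601 units around 0.

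After a loess on brightness within each array, 9 synthetase genes passed. Still lower were TYS1, DED81, FRS2 and THS1, at -0.55, -0.51, -0.43 and -0.43 (limma adjusted p = 0.0017, 0.00337, 0.00628 and 0.0466), and GRS1 no longer passed at -0.28 (adjusted p = 0.184). The other 5, CDC60, HTS1, ILS1, KRS1 and SES1, were higher. All genes then split into 146 lower and 147 higher, in place of 455 and 85, so the direction of single synthetase genes near 0 depends on this choice.

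Besides TYS1, DED81, FRS2, THS1 and GRS1, no cytosolic gene passed in the mean of the 8 mutants. HTS1, VAS1 and KRS1, of the histidyl, valyl and lysyl enzymes and also at the limit, were at -0.22 ± 0.08, -0.21 ± 0.07 and -0.16 ± 0.08 (SE, limma adjusted p = 0.0872, 0.0609 and 0.208). HTS1 and VAS1 each make the cytosolic and the mitochondrial enzyme. DPS1, of the aspartyl enzyme, was at -0.18. ALA1, of the alanyl enzyme, which also serves both compartments, was at 0.06. The others were ILS1 (isoleucyl) at 0.03, WRS1 (tryptophanyl) at 0.06, MES1 (methionyl) at 0.06, SES1 (seryl) at 0.07, CDC60 (leucyl) at 0.14 and GLN4 (glutaminyl) at 0.18.

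Among the mitochondrial genes, 9 of 12 were above 0 in the mean of the 8 mutants, and the highest array values came from single spots. MSM1, of the methionyl enzyme, was the highest at 0.35 ± 0.14 (SE, limma adjusted p = 0.107). Over 24 arrays it ran from -0.23 to 3.31 with a median of 0.26, and it was above 0 on 21 of them. Its highest value, on PG-132 replicate 3, joined a probe at 6.49 and a probe at 0.13, and with the first probe alone MSM1 was at -0.05 in PG-132, in place of 1.19. MSF1, of the phenylalanyl enzyme, was at 0.16 and ran from -0.82 to 3.02 with a median of 0.15. Its highest value, on PR-438 replicate 1, likewise joined probes at 5.80 and 0.24. Such gaps also touched cytosolic genes, as FRS1 on PR-164 replicate 3 had probes at 3.06 and -0.16 and SES1 on PG-259 replicate 1 had 2.13 and -0.06.

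DIA4, of the mitochondrial seryl enzyme, was at 0.14 ± 0.06 (SE, limma adjusted p = 0.125) and ran from -0.44 to 0.73 with a median of 0.13. MSY1, of the tyrosyl enzyme, was at 0.11 and ran from -0.46 to 0.70 with a median of 0.15, above 0 on 19 of 24 arrays. The remaining mitochondrial genes were ISM1 (isoleucyl) at 0.10, MSK1 (lysyl) at 0.08, MST1 (threonyl) at 0.08, MSD1 (aspartyl) at 0.07, MSE1 (glutamyl) at 0.04, MSR1 (arginyl) at -0.001, MSW1 (tryptophanyl) at -0.06 and NAM2 at -0.07. NAM2 is the leucyl enzyme and is also known for its role in splicing mitochondrial introns.

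**Figure D4:**
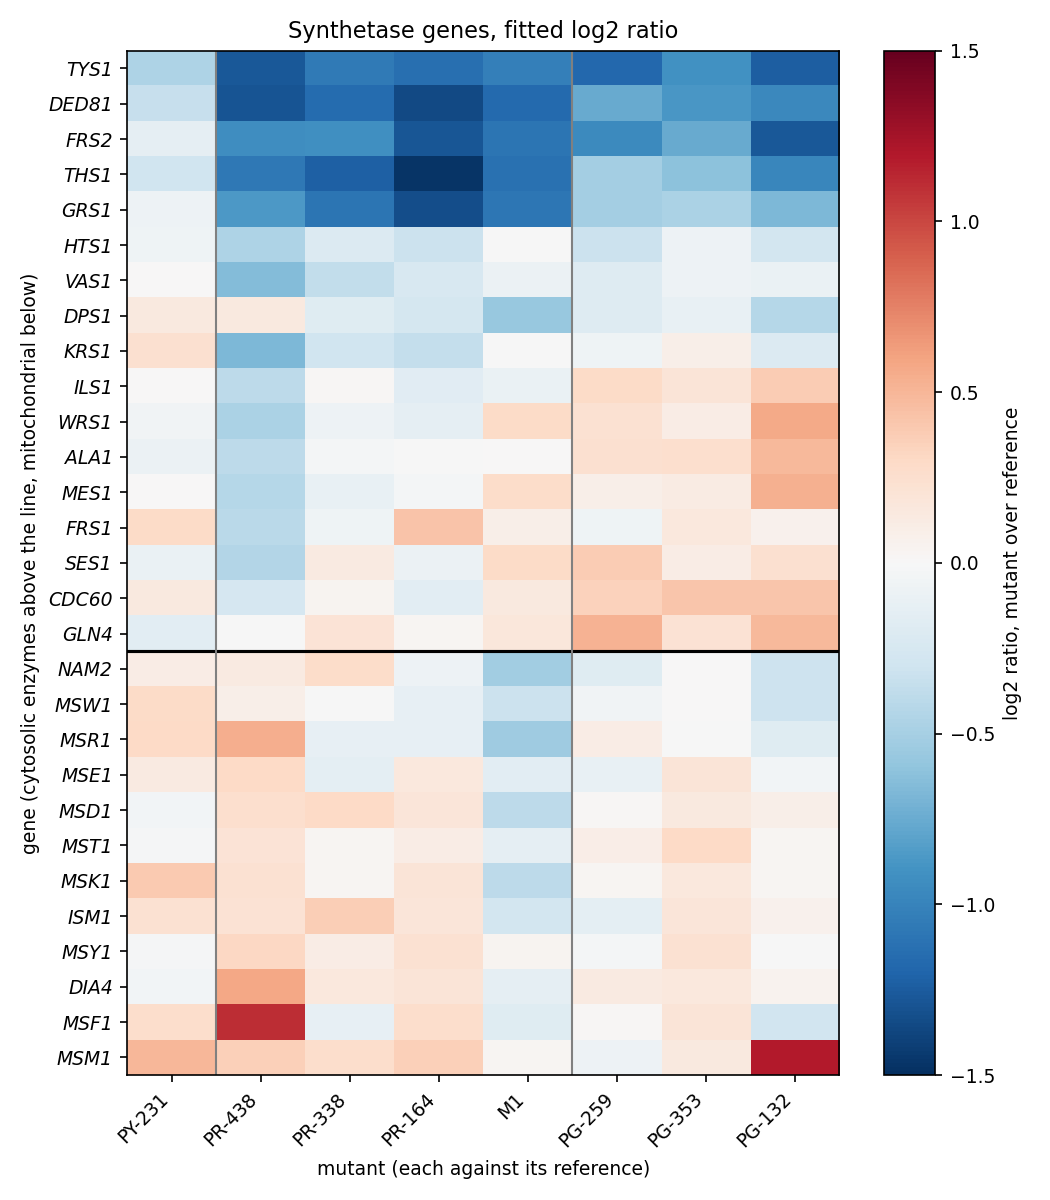
Fitted log2 ratio of 29 synthetase genes (rows, cytosolic above the line and mitochondrial below) in 8 mutants (columns, each against its reference, with PY-231 first, then the DsRed and the GFP mutants), where blue is lower and red higher in the mutant. TYS1, DED81, FRS2, THS1 and GRS1 were below 0 in all 8 mutants and nearest to 0 in PY-231, and the dark red cells of MSF1 in PR-438 and MSM1 in PG-132 each hold an array on which 1 of the 2 probes stood far above the other.

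In single mutants 1 synthetase gene passed, DED81 in PR-164, where its arrays were at -0.79, -1.65 and -1.0. It fell by 1.36 ± 0.28 (SE, limma adjusted p = 0.0372), and 0.467% of all genes were lower in PR-164 (0.492% in either direction). The call did not hold without replicate 1, 2 or 3 (limma adjusted p = 0.185, 0.236 and 0.137), after the loess (adjusted p = 0.19), with the last probe alone (adjusted p = 0.11), or with slide 2 turned, when DED81 was at 0.28 (adjusted p = 0.626). With the slide as a replicate block, DED81 also passed in PR-438 at -1.29 (limma adjusted p = 0.0304, against 0.0517 without the block) and in M1 at -1.16 (adjusted p = 0.0274, against 0.0807), and FRS2 passed in PR-164, M1 and PG-132. Calls over all genes rose as well with the block, to 34 in PR-164, 20 in PR-438, 43 in M1 and 13 in PG-132, in place of 20, 12, 10 and 9.

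In the other 7 mutants limma called 0 of the 29 genes. Over all genes the called shares were 0.295% in PR-438, 0.123% in PR-338, 0.246% in M1, 0.0492% in PG-259, 0.0246% in PG-353, 0.221% in PG-132 and 0% in PY-231. At an unadjusted p under 0.05 there were 12 synthetase genes in PR-438, 5 in PR-338, 5 in PR-164, 8 in M1, 4 in PG-259, 4 in PG-353, 10 in PG-132 and 1 in PY-231. Over all genes the shares with such a p were, in the same order, 13.3%, 10.7%, 10.7%, 14.3%, 8.77%, 6.34%, 12.9% and 2.53%. In PR-438 the synthetase genes were 9 cytosolic ones, all lower, and 3 mitochondrial ones, all higher. In M1 they were 5 cytosolic and 3 mitochondrial genes, all lower.

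Among the cytosolic genes the one with the largest moderated t was either DED81 or TYS1 in every mutant. DED81 led in PR-338 at -1.15 (limma adjusted p = 0.113), as it did in PR-438, PR-164 and M1. TYS1 led in the mutants set against GFP and YFP, at -1.17 in PG-259, -0.91 in PG-353, -1.24 in PG-132 and -0.46 in PY-231 (limma adjusted p = 0.199, 0.69, 0.081 and 0.998). Without replicate 1, DED81 was at -1.13 in PR-438, -1.16 in PR-338, -1.32 in PR-164 and -0.83 in M1, and TYS1 at -1.06 in PG-259, -0.78 in PG-353, -1.35 in PG-132 and -0.44 in PY-231 (limma adjusted p = 0.185 to 1.00). With slide 2 turned, all 8 of these values were above 0. These 2 genes come from the group at the brightness limit.

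Among the mitochondrial genes the leading one changed from mutant to mutant and none passed. DIA4 led in PR-438, where its arrays were at 0.31, 0.73 and 0.64 (fitted 0.58, limma adjusted p = 0.104), and without replicate 1 it was at 0.68, adjusted p = 0.268. PR-338, at 0.14, 0.12 and 0.14, and PG-353, at 0.03, 0.18 and 0.20, also had it above 0 on all 3 arrays. DIA4, MSR1 and DED81 lie on chromosome VIII, whose 187 measured genes averaged 0.09, 0.09 and 0.44 on the arrays of PR-438, and MSR1 was at 0.54 and DED81 at -1.29 there. DIA4 also had the largest t in PG-259, at 0.13, with 0.64 on replicate 1 against 0.11 and -0.42 on replicates 2 and 3, and it was at -0.15 without replicate 1. The genes of chromosome VIII averaged 0.44, -0.23 and 0.28 on these arrays. DIA4 led likewise in PR-164, at 0.20, with -0.05, 0.28 and 0.29, and was at 0.29 without replicate 1. Chromosome VIII averaged 0.05, -0.25 and -0.08 there.

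In M1 the leading mitochondrial gene was MSR1, at -0.79, 0.02 and -1.22 on its arrays and fitted at -0.53 (limma adjusted p = 0.148), or at -0.60 without replicate 1. MSK1 led in PY-231 at 0.14, 0.54 and 0.54 (fitted 0.39, limma adjusted p = 0.998). ISM1 led in PR-338 at 0.11, 0.12 and 0.75 (fitted 0.37, adjusted p = 0.475). MST1 led in PG-353 at 0.28, 0.34 and 0.30 (fitted 0.30, adjusted p = 0.861), with its 3 arrays close together. MSM1 led in PG-132 at 0.21, 0.28 and 3.31 (fitted 1.19, adjusted p = 0.19), where the last value is the split spot named above. Without replicate 1 MSK1 was at 0.54 in PY-231, ISM1 at 0.44 in PR-338, MST1 at 0.32 in PG-353 and MSM1 at 1.79 in PG-132.

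Whether mutants that share a reference differed from each other was tested with limma's moderated F test, in which the shared reference cancels. No synthetase gene passed among the 4 DsRed mutants or among the 3 GFP mutants, and neither did any other gene (0% of 4069 in both). At an unadjusted p under 0.05 there were 2 synthetase genes in the DsRed comparison, MSR1 and DIA4 (limma adjusted p = 0.869 for both), against 5.55% of all genes. In the GFP comparison no synthetase gene reached it, against 1.01% of all genes.

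The medians of the classes were then set side by side, as a description without a test. The cytosolic minus the mitochondrial median was -0.73 in PR-438, -0.43 in PR-164, -0.25 in PR-338, 0.22 in M1, -0.11 in PG-132, -0.07 in PG-353, -0.06 in PG-259 and -0.25 in PY-231. In PR-438 the cytosolic median was -0.65, -0.26 and -0.29 on its arrays and the mitochondrial median 0.23, 0.13 and 0.29, so the medians of the classes were apart on each array while single genes overlapped, as GRS1 at 1.33 and THS1 at 1.09 on replicate 1 show. Without replicate 1 the difference there was -0.48, and with slide 2 turned -0.23. In PR-438, 16 of 17 cytosolic genes were fitted below 0 and 12 of 12 mitochondrial genes above it.

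M1 ran the other way, with a cytosolic median of 0.20, -0.18 and 0.13 and a mitochondrial median of -0.32, -0.19 and -0.20 on its arrays, and 10 of its 12 mitochondrial genes were fitted below 0. Its difference on replicate 2 was only 0.0074. Without replicate 1 its difference was 0.28. PG-259 had differences of -0.53, -0.25 and 0.88, and PG-132 had -0.08, -0.80 and 0.72. Each slide, PY-231 replicate 1 and M1 replicate 1 were left out in turn, and no other single array was. The difference then ran from -0.51 to 0.31 in PG-259 and from -0.44 to 0.47 in PG-132. It ran from -0.14 to 0.07 in PG-353 and from -0.24 to 0.030 in PY-231. Its sign in these mutants thus depended on which arrays were used. The difference ran from -0.73 to -0.48 in PR-438, from -0.66 to -0.15 in PR-164, from -0.32 to -0.15 in PR-338 and from 0.11 to 0.47 in M1. With slide 2 turned it was 0.31 in PG-259, 0.54 in PG-132, 0.27 in PG-353, 0.070 in PY-231, 0.097 in PR-164, -0.27 in PR-338 and 0.39 in M1. Over the 24 arrays the cytosolic median was the lower one on 14, or on 10 with slide 2 turned.

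**Figure D5:**
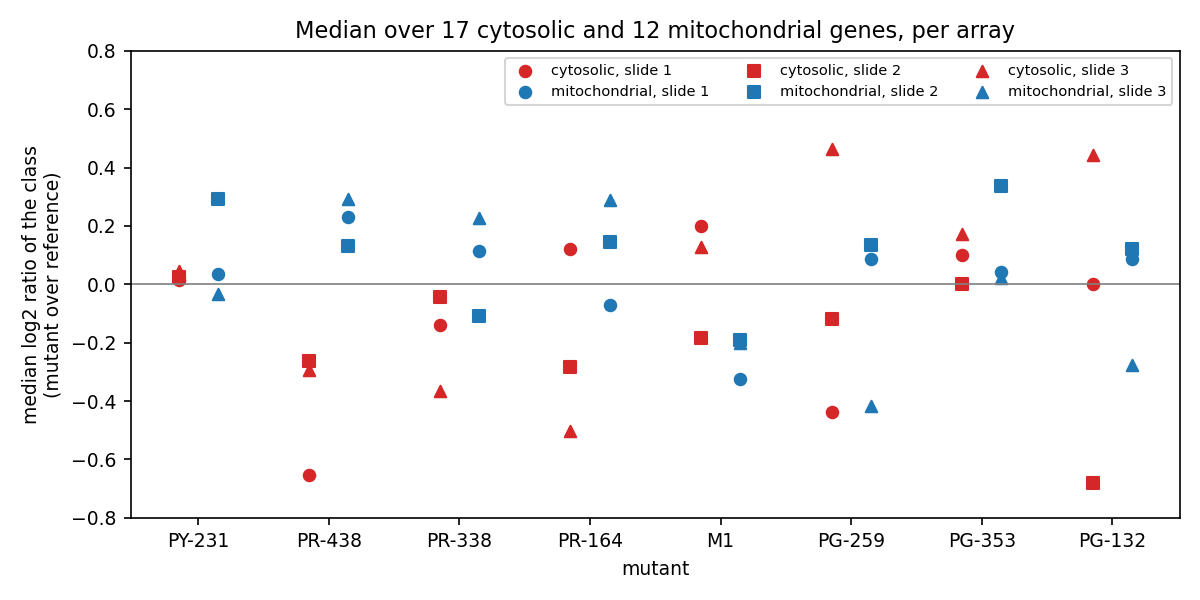
Median log2 ratio over the 17 cytosolic (red) and the 12 mitochondrial (blue) synthetase genes on each array (vertical axis), by mutant (horizontal axis) and slide (circle 1, square 2, triangle 3). The medians separate on all 3 arrays of PR-438, with the cytosolic one lower as slide 2 is read here, and cross between arrays of PG-259 and PG-132.

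For 10 amino acids both a cytosolic and a mitochondrial gene were measured, which gave 11 pairs since FRS1 and FRS2 share MSF1. In the mean of the 8 mutants the cytosolic partner was the lower one in 9 of 11 pairs, in 7 without slide 2 and in 4 with slide 2 turned. The gap was widest for TYS1 against MSY1 (-1.14), FRS2 against MSF1 (-1.07) and THS1 against MST1 (-0.99), each of which has a gene at the limit on its cytosolic side. Without slide 2 these gaps were -0.55, -0.91 and 0.42, and with slide 2 turned 0.59, 0.17 and 1.41. Between -0.29 and -0.07 lay methionine, aspartate, lysine, phenylalanine with FRS1, isoleucine and serine, whereas leucine (CDC60 against NAM2, 0.21) and tryptophan (WRS1 against MSW1, 0.11) had the cytosolic partner higher. TYS1 and FRS2 were below their partners on 21 of 24 arrays each, THS1 on 13. On the 16 arrays of slides 1 and 3 alone TYS1 and FRS2 were below them on 13 each and THS1 on 5, and turning slide 2 added no array to these counts. In PR-438 the cytosolic partner was lower in 11 of 11 pairs and in M1 in 4, or in 8 and 2 with slide 2 turned.

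Other steps in the use of charged tRNA were read from lists of 46 measured genes, of which 10 were lower and 0 higher in the mean of the 8 mutants by limma. That is 21.7% lower, against 11.2% of all genes. All 10 were at the brightness limit, as were 18 of the 46, and 55.6% of those 18 were lower, against 61.8% of all genes there. The direction rested on slide 2 here too. With it turned, 6 of the 46 were lower and 19 higher, and without it 4 were lower and 12 higher, and none of the 10 below was called lower in either setting. ARC1, the cofactor that binds the methionyl and glutamyl enzymes, fell by 0.75 ± 0.13 (SE, adjusted p = 0.000375), while its partner MES1 was at 0.06. Without slide 2 ARC1 was at 0.22, and with slide 2 turned at 0.97. Among 9 genes of cytosolic elongation, all at the limit, 3 were lower, namely TEF4 (-0.95) and EFB1 (-0.92), subunits of the exchange factor of elongation factor 1, and EFT2 (-0.67), a gene of elongation factor 2. The list had a median of -0.52. Without slide 2, and so without a dye term, TEF4, EFB1 and EFT2 were at 0.55, 0.06 and 1.23. EFT2 was then called higher (limma adjusted p = 0.00958).

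Of 5 genes of the response to uncharged tRNA, GCN4, the transcription activator of amino acid synthesis, was fitted at -0.74 ± 0.16 (SE, limma adjusted p = 0.00392). Without slide 2, and so without a dye term, it was instead higher, at 0.89 (limma adjusted p = 0.0108). With slide 2 turned it was also higher, at 1.63 (limma adjusted p = 2.53e-07). Of 15 synthesis genes known as targets of Gcn4, 5 were lower, LYS1 (-1.22), ILV5 (-1.09), HIS4 (-1.08), ARG1 (-1.05) and LEU4 (-0.68), all at the limit, whereas 9 of the 10 that did not pass were not at the limit. Of the 6 at the limit 83.3% were thus lower, against 61.8% of all genes there. Without slide 2 none of the 5 passed, with values of -0.41 to 0.20, and with slide 2 turned all 5 were higher, at 0.64 to 1.28. ARG1, of arginine synthesis, was also lower in PR-438 (-1.75, limma adjusted p = 0.0181) and PR-164 (-1.45, adjusted p = 0.0372), and LYS1, of lysine synthesis, in PR-164 (-1.49, adjusted p = 0.0372). These 3 calls held neither without replicate 1 (adjusted p = 0.185 to 0.268) nor without replicate 2 or with slide 2 turned. None of the 5 genes of mitochondrial elongation and glutaminyl-tRNA supply passed, with MEF2 the highest at 0.26, and none of the 11 genes of tRNA processing and export, with RPM2 of mitochondrial RNase P at 0.16.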

How the data were processed

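RNA of 24 two-colour arrays (8 mutants, 3 slides) was read from 1 deposited table of 15744 probes. The members and gene lists were chosen with earlier results of these data known. Its values were found to be linear channel ratios, in another unit than a normalised log ratio, since 82.5% to 100.0% of an array's deposited values are quotients of whole numbers with denominators up to 10000, within a tolerance of 1.5e-09 that covers at most 9.12% of the line. The sources used here do not give the authors' steps beyond GenePix files that the labels name, and no scaling was seen. Their scale is read from the values, and the labels do not state the direction on slide 2. Spots at or below 0 (2.14% to 8.28% of an array) were left out, log2 values were centred on each array's median of named probes, and both probes of a gene were averaged. Of the probes, 8152 carried 1 symbol and 7592 none. Symbols were updated through the R64 catalogue, 129 by a synonym and 4 unmatched. No brightness filter was applied.

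Limma 3.58.1 (R 4.3.3) fitted 8 mutant coefficients and a dye term on all 24 arrays, with 15 residual degrees of freedom, and Benjamini-Hochberg adjustment over 4069 genes within a comparison, called at an adjusted p under 0.05. Each ratio was tested against 0, so the reference cultures' own spread is not separated. The series text calls the 3 sets biological replicas, the number is a slide, and p-values measure only the spread between these arrays, whose number limits the precision. Per the labels each mutant kept 1 column and row on all slides, so its position cannot be told apart from the mutant. Same-slide arrays deviated together (median r = 0.50, lowest -0.27, against -0.33 between slides), and the labels tie the replicate number to a slide, so the block is given where it changes a call. These deviations are from a mutant's own mean over its 3 arrays and sum to 0, which by itself pushes the value between slides below 0. The fit was tested on simulated data, and no result of that test is given here. Every member is named; array values are given for called members, the 4 of each class furthest from 0 in the mean of the 8 mutants, and the largest moderated t per mutant and class. Alternatives were the direction of slide 2, left-out slides or arrays, a slide block, no dye term and a loess on brightness. Further ones were other centring and scaling, and other handling of probes and of values at or below 0. Arrays of the same reference only and genes on all arrays only were also used. The single arrays left out were PY-231 replicate 1 and M1 replicate 1. Without slide 2 no dye term was fitted, since all mutants were then in Cy5.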

Additional observations from a re-analysis of the deposited data

Results flagged for a closer look

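PR-438 and M1, both set against the DsRed reference, had mitochondrial medians and class differences of opposite sign on every array as slide 2 is read here. The median over the 12 mitochondrial genes averaged 0.22 over the 3 arrays of PR-438, all above 0, and -0.24 over the 3 arrays of M1, all below 0. The cytosolic minus the mitochondrial median averaged -0.62 in PR-438, below 0 on 3 of 3 arrays, and 0.29 in M1, above 0 on 3 of 3 arrays, although by only 0.0074 on replicate 2. The cytosolic median of replicate 2 was below 0 in both, at -0.26 in PR-438 and -0.18 in M1. With slide 2 turned, the mitochondrial median averaged 0.13 in PR-438 and -0.11 in M1, and the difference averaged -0.36 in PR-438 and 0.28 in M1, each with 2 of 3 arrays on its own side of 0. These differences between the mutants were not tested. M1 replicate 1 is the array whose mating-type genes differed from those of the other M1 arrays.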

How the results depend on the processing

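The main limits are the direction on slide 2, the dependence of the 5 calls on that slide, and brightness, which moves with the cytosolic calls. In the mean of the 8 mutants a turned slide 2 cannot be told apart from a dye effect. All values are log2 ratios unless a number of genes is named. Of 45 values of single members (29 in the mean of the 8 mutants and 16 in single mutants), 27 turned sign with slide 2 turned, and 19 did so under at least 1 other alternative, most of them close to 0.

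With slide 2 turned, the members called were 9 in the mean of the 8 mutants (6 higher and 3 lower), 5 in PG-132, 1 each in PY-231, PG-259 and M1, and 0 in PR-164. Over all 4069 genes 31.6% were then called in the mean of the 8, near the 9 of 29 members, and 446 genes in PG-132, 69 in PY-231, 154 in PG-259, 472 in M1 and 289 in PR-164. The cytosolic median became 0.11 and the mitochondrial one 0.0095 in the mean of the 8, and the cytosolic minus the mitochondrial median 0.096 there, 0.070 in PY-231, -0.23 in PR-438, 0.27 in PG-353 and 0.097 in PR-164. In the mean of the 8 mutants TYS1 was then at 0.65, DED81 at 0.63, THS1 at 1.43, GRS1 at 1.32, FRS2 at 0.29, HTS1 at 0.27, KRS1 at 0.11, VAS1 at 0.053, NAM2 at 0.0015, ALA1 at -0.12, CDC60 at -0.045, ILS1 at -0.20, MES1 at -0.076, WRS1 at -0.011, DIA4 at -0.073, ISM1 at -0.14 and MSD1 at -0.21. In single mutants DED81 was at 0.70 in PR-438, 0.52 in PR-338, 0.28 in PR-164 and 0.26 in M1, TYS1 at 0.84 in PG-259, 0.46 in PG-353, 0.77 in PG-132 and 1.23 in PY-231, and DIA4 at -0.0079 in PG-259 and -0.063 in PR-164.

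After the loess on brightness, 9 members were called in the mean of the 8 mutants and 0 in PR-164. The cytosolic median was 0.092, and the class difference 0.020 in the mean of the 8, -0.35 in PR-438 and -0.069 in PY-231. HTS1, KRS1, VAS1, MSR1, MSW1 and MSE1 were at 0.26, 0.32, 0.27, 0.084, 0.046 and -0.015. The cause of these shifts was not tested.

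The replicate block, with the slide as a further term, gave 1 member in PR-438 (DED81), 1 in PG-132 (FRS2), 2 in PR-164 and 2 in M1 (DED81 and FRS2 in both), beside 20, 13, 34 and 43 of all genes, in place of 12, 9, 20 and 10, and it changed no other call, with the same 5 genes in the mean of the 8 mutants. With no dye term and the slide as a random block, 0 members and 0 of all genes passed in the mean of the 8 mutants and in PR-164, and ILS1 and MSD1 were at -0.040 and -0.0013.

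With arrays scaled to 1 spread, 8 members passed in the mean of the 8 mutants, 8 in PR-438 and 2 in PR-338, beside 757, 297 and 115 of all genes, in place of 540, 12 and 5, and MSR1 and MSW1 were at 0.092 and 0.0016. Centring on all probes gave 2 members in PR-438, beside 41 of all genes, and MSR1 at 0.0089. Setting values at or below 0 to the lowest positive value gave 0 in PR-164, beside 2 of all genes, and MSR1 at 0.0015. Arrays of the same reference only gave 2 in PR-164, beside 35 of all genes. The median of probes gave the same values as the mean, since nearly all genes have 2 probes. Of the choices made after seeing the data, the first probe alone gave 3 members in PR-164, 1 in PR-338 and 1 in PR-438. Calls over all genes were then 15, 4 and 4, with MSE1 at -0.044, NAM2 at 0.033 and MSM1 in PG-132 at -0.050. The last probe alone, another such choice, gave 0 members in PR-164 and 1 in PR-438 (TYS1), beside 16 and 39 of all genes, and MSR1 at 0.0072. The mean of the 8 mutants has no value with arrays of the same reference only.

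Each slide, PY-231 replicate 1 and M1 replicate 1 were left out in turn. Members called then ran from 5 to 7 in the mean of the 8 mutants. They ran from 0 to 1 in PR-438 and M1, and from 0 to 2 in PR-164 and PG-132. The highest of these came beside 527 of all genes in the mean of the 8 and 63 in PG-132 (both without slide 3). In M1 it came beside 105 (without slide 2), and in PR-438 and PR-164 beside 14 and 35 (without PY-231 replicate 1). Without slide 2 the 6 called were FRS2, TYS1, SES1, MSM1, MSR1 and MSW1. The class difference ran from -0.27 to -0.055 in the mean of the 8, from -0.73 to -0.48 in PR-438 and from -0.24 to 0.030 in PY-231, and the cytosolic median from -0.18 to 0.0082. In the mean of the 8 mutants THS1 ran from -0.95 to 0.52, GRS1 from -0.84 to 0.56, HTS1 from -0.22 to 0.048, DPS1 from -0.37 to 0.0082, ALA1 from -0.057 to 0.12, FRS1 from -0.038 to 0.17, ILS1 from -0.17 to 0.058, MES1 from -0.018 to 0.093, ISM1 from -0.037 to 0.13, MSD1 from -0.14 to 0.084, MSE1 from -0.0061 to 0.083, MSR1 from -0.40 to 0.066 and MSW1 from -0.31 to 0.057. In single mutants TYS1 ran from -0.79 to 0.48 in PY-231 and DIA4 from -0.15 to 0.37 in PG-259.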
